A study of Bos taurus with 6 samples.

Results

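The 9 acyl-CoA synthetase genes ACSM1, ACSM3, ACSL1, ACSL3, ACSL4, ACSL5, ACSL6, ACSS1 and ACSS2 were followed in longissimus dorsi, the long muscle of the back, in 3 Shandong black and 3 Luxi cattle aged 18 months. They were chosen by name, with their breed values already known, out of 18010 genes listed for these animals, and all 9 were found. One RNA-Seq library was made per animal, and the level of a gene is given as FPKM, fragments per kilobase of a transcript after division by the sequenced amount of its library. Shandong black cattle combine Japanese black, Luxi and Bohai black cattle and go back to a cloned line, Luxi cattle are a local yellow breed, and the breeds came from different suppliers, so that breed and source cannot be told apart.

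Acyl-CoA synthetases join a fatty acid to coenzyme A at the expense of ATP, the step that a fatty acid passes before it can be oxidised, stored as triglyceride, built into membranes or used to modify proteins. The family is divided by the length of the chain: the ACSS enzymes act on acetate and other short chains, the ACSM enzymes on medium chains in the mitochondrion, and the ACSL enzymes on long chains. In muscle, long-chain acyl-CoA is mainly oxidised in mitochondria, whereas in fat cells much of it enters triglyceride.

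The muscle label was checked against the markers of skeletal muscle. ACTA1, the skeletal muscle actin, ranged from 12237 to 54910 FPKM, and of the 6 muscle markers 0 were called between the breeds by limma (1 at an unadjusted p under 0.05). That marker was MYH2, at 8.19 to 209 FPKM in Shandong black cattle and 188 to 1284 FPKM in Luxi cattle. Its log2 fold change, Luxi over Shandong black cattle, was 3.57, and that of MYH1 was 2.86. In both the breeds overlapped. The libraries rested on 14.1 to 14.6 gigabases of aligned sequence in Shandong black cattle and 17.5 to 17.99 in Luxi cattle. The labels used here do not give the sex of the animals. XIST, the RNA made from the inactive X chromosome and a gene added here with its values known, was at 4.83 to 14.0 FPKM in the Shandong black cattle and at 0 to 0.207 FPKM in the Luxi animals. There was no overlap, so a difference between breeds cannot be told apart from whatever XIST marks. In bulk muscle, fewer cells of a type and less RNA per cell cannot be told apart either.

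ACSL1 was the most abundant of the 9 genes in every animal. Its mean level over the 6 animals was 58.4 FPKM, followed by ACSS1 (9.85), ACSS2 (7.34), ACSL3 (5.81), ACSL4 (4.23), ACSM1 (3.72), ACSL5 (1.67), ACSM3 (0.408) and ACSL6 (0.157). FPKM is per length, so these levels can be set side by side. For each of the 8 pairs of neighbours in this order, the difference in log2(FPKM + 1) within an animal was tested by an exact two-sided sign-flip permutation test. The order ACSL1 above ACSS1 was kept in 6 of 6 animals, with a mean difference of 2.55 ± 0.87 (SD, n = 6, exact p = 0.0312, adjusted over the 8 pairs 0.125). The order ACSL5 above ACSM3 was also kept in 6 of 6 animals, with a mean difference of 0.95 ± 0.58 (SD, n = 6, exact p = 0.0312, adjusted 0.125). The value 0.0312 is the smallest that 6 animals can give. ACSL3 was above ACSL4 in 5 of 6 animals, with a mean difference of 0.40 ± 0.27 (SD, n = 6, exact p = 0.0625, adjusted 0.167). The other 5 pairs kept their order in 3 or 4 animals, with adjusted p-values of 0.3 or more in this exact test. No pair had an adjusted p under 0.05. With so few animals, a pair at the smallest p cannot pass on its own after adjustment over the 8 pairs. The adjusted values therefore cannot decide on the order of a single pair.

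**Figure D1:**
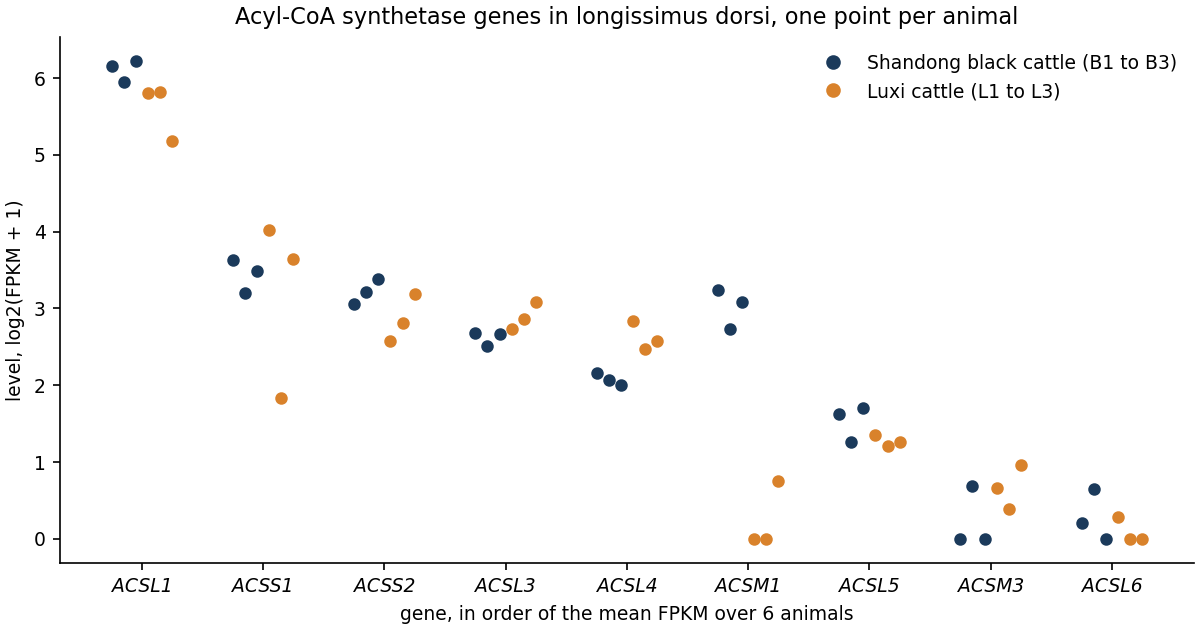
Level of each of the 9 acyl-CoA synthetase genes as log2(FPKM + 1) in the 3 Shandong black cattle (dark) and the 3 Luxi cattle (orange), one point per animal, with the genes in order of their mean FPKM. ACSL1 lies above all other members in every animal, and ACSM1 lies among the middle genes in Shandong black cattle but near 0 in Luxi cattle.

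The order changed between the breeds mainly through ACSM1. By mean FPKM, ACSM1 was the 4th of the 9 genes in Shandong black cattle and the 8th in Luxi cattle. ACSL3 was 5th in Shandong black cattle and 3rd in Luxi cattle, and ACSL1 and ACSS1 were the first and second in both breeds. Some of these places depended on the transcript rule. In Luxi cattle ACSL3 (6.47 FPKM) was just above ACSS2 (6.36 FPKM), and was below it on reference transcripts only and when transcripts were weighted by their bases. With that weighting, ACSS2 had a higher mean than ACSS1 in Shandong black cattle.

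Between breeds, genes with a mean of at least 1 FPKM in at least 1 breed were tested with limma on log2(FPKM + 1), and a gene was called at a Benjamini-Hochberg adjusted p under 0.05 with a log2 fold change, Luxi over Shandong black cattle, of at least 1 in size. Of 9781 genes tested, 251 were called (2.57%), 151 of them higher and 100 lower in Luxi cattle. With median-of-ratios size factors 113 were called higher and 139 lower, and with quantile normalization 124 and 164. The count depended on single animals, with 10 genes called without Shandong black animal 1, 3 without animal 3 of that breed, 593 without Luxi animal 1, 44 without Luxi animal 2 and 87 without Luxi animal 3. Of the 9 acyl-CoA synthetase genes, 7 passed the filter on low values and 1 of these was called. This was ACSM1, lower in Luxi cattle, a direction in which 1.02% of all tested genes were called, while 1.54% were called higher and none of the members was. Since the 9 genes were chosen with these values known, their breed differences are given as a description without p-values.

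Among the 7 tested members, the log2 fold change was negative for ACSM1, ACSL1, ACSL5, ACSS1 and ACSS2 and positive for ACSL3 and ACSL4. Their median was −0.27, against 0.13 over all genes tested, of which 37.5% had a negative value. The median of all genes was 0.03 with size factors and 0.00 with quantile normalization, and the signs of the 7 members were the same under both. The 3 animals of one breed did not overlap with those of the other for ACSM1 and ACSL1, which were lower in every Luxi animal, and for ACSL3 and ACSL4, which were higher. For ACSL3 the breeds overlapped on reference transcripts only and when transcripts were weighted by their bases. Over all tested genes, 29.1% were without overlap, and 9.13% were so with the lower level in Luxi cattle and 20.0% with the higher.

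**Figure D2:**
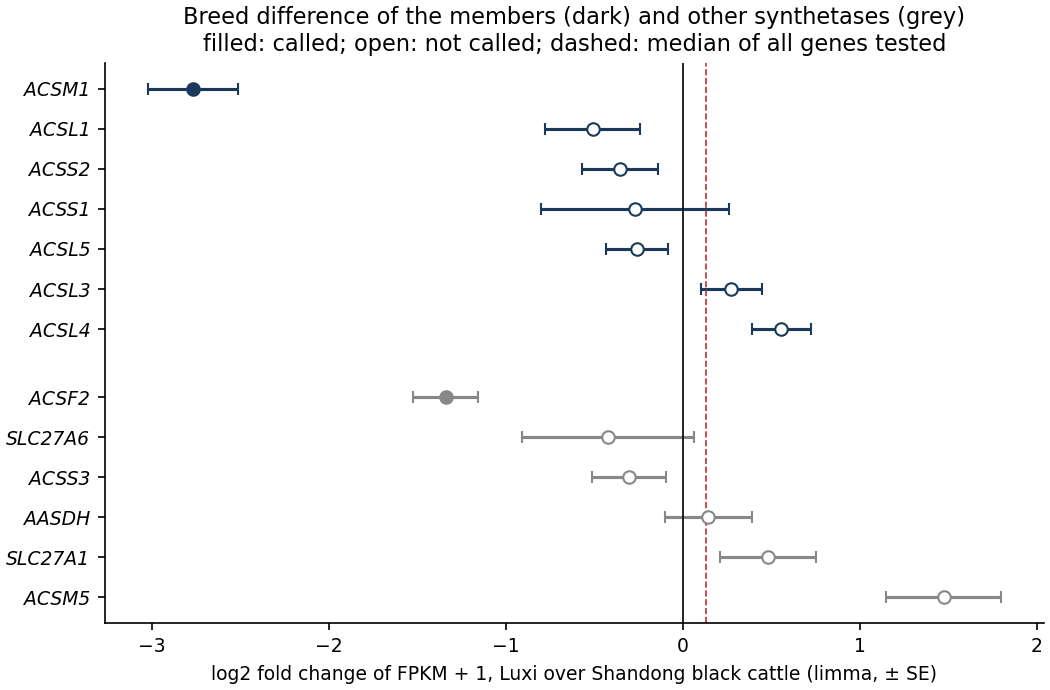
Log2 fold change of FPKM + 1, Luxi over Shandong black cattle, with its standard error from limma, for the 7 tested members (dark) and 6 other acyl-CoA synthetase genes (grey). Filled points are called and open points are not, and the dashed line is the median of all tested genes at 0.13. ACSM1 at −2.77 and ACSF2 at −1.34 are the called genes, and ACSM5 lies on the other side at 1.47.

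ACSM1 encodes a medium-chain acyl-CoA synthetase of mitochondria. Its position on ARS-UCD1.2, the build of all coordinates given here, is chromosome 25, 18233709 to 18298234, plus strand. Its level was 8.44, 5.67 and 7.50 FPKM in Shandong black animals 1 to 3. It was listed at 0 in Luxi animals 1 and 2 and at 0.686 FPKM in Luxi animal 3. The lowest Shandong black animal was thus far above the highest Luxi animal. On the log2 scale the change was −2.77 ± 0.26 (SE), and 23 of all tested genes had a lower one. The call was lost when Shandong black animal 1 was left out (log2 fold change −2.66) or when Shandong black animal 3 was left out (−2.74), fits in which only 10 and 3 genes of the whole table were called.

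The leading reference transcript of ACSM1, with 14 exons, carried 46.6 to 80.9% of the gene FPKM in Shandong black cattle and all of it in Luxi animal 3, where it was covered 12.0 times on average over its bases. In Luxi animal 1 a single-exon piece of 0.154 FPKM on the same strand was left out of the gene, and in Luxi animal 2 a piece of 0.215 FPKM on the opposite strand. With an Illumina TruSeq RNA kit whose strand marking is not stated, the strand of these pieces is uncertain. Neither would bring these animals near the Shandong black level.

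Markers of fat cells moved with ACSM1. Of the 10 markers, 9 were tested, 9 had a negative log2 fold change, 5 were called lower in Luxi cattle and 7 were lower without overlap, with a median of −1.46. Without Shandong black animal 1 or 3 only 1 of them was called, without Luxi animal 2 there were 2, and without Luxi animal 3 there were 3. The 5 were ADIPOQ, FABP4, PLIN1, CIDEC and LIPE, which encode adiponectin, a fatty acid carrier, lipid droplet coat proteins and hormone-sensitive lipase. The list of 10 summed to 205, 138 and 181 FPKM in Shandong black animals 1 to 3. In Luxi animals 1 to 3 it summed to 16.0, 30.7 and 40.3 FPKM, and no marker was at 0 in every animal. Leptin (LEP), a hormone of fat cells, was near the floor in Luxi animals 1 to 3, at 0, 0.0881 and 0.0307 FPKM. Of the 6 markers of slow fibres, MYL2, TNNC1, TNNI1 and TNNT1 were lower in every Luxi animal, MYL3 was higher in every Luxi animal (13.1 to 46.4 against 63.5 to 1180 FPKM), and MYH7, the slow myosin, overlapped. Their summed level, 25446 to 31637 FPKM in Shandong black cattle and 3165 to 13062 FPKM in Luxi cattle, had MYL2 as its largest part in every animal. TNNI1, the slow troponin I, was the 1 called. Its call was lost when any animal but Luxi animals 1 and 3 was left out, and also with a pseudocount of 0.1, no filter, the 80% rule for assembled transcripts, the replicate block (adjusted p = 0.0698 by limma) and reference transcripts only, where the log2 fold change was −1.20 in place of −2.32. The part of either in the ACSM1 difference was not tested.

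ACSM3 encodes another medium-chain enzyme of mitochondria. It lies on chromosome 25 at 18483688 to 18540167, plus strand, 185 kilobases downstream of ACSM1. It was listed at 0 in Shandong black animals 1 and 3 and at 0.605 FPKM in animal 2, and stood at 0.578, 0.307 and 0.956 FPKM in Luxi animals 1 to 3. The breeds overlapped, and the gene was below the filter and was not tested. In Shandong black animal 2 and Luxi animal 1 the value is the sum of 2 assembled fragments. Weighted by their bases over the whole gene, these amount to 0.156 and 0.268 FPKM, so that all 3 Luxi animals then lie above all Shandong black animals at a level that remains below 1 FPKM. These values leave out pieces of similar size. On the same strand they held 0.344 FPKM in Shandong black animal 2 and 0.186 FPKM in animal 3. On the opposite strand they held 0.249 to 0.797 FPKM in every animal, and their strand is uncertain.

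ACSM5, a related medium-chain gene that is no member of the 9, lies 114 kilobases on the other side of ACSM1, at 18091203 to 18119703. It is named here with its values known. Its level was 0.297, 2.02 and 0.965 FPKM in Shandong black cattle and 3.97, 6.08 and 3.68 FPKM in Luxi cattle. It was higher in every Luxi animal, the opposite direction to ACSM1, with a log2 fold change of 1.47 ± 0.33 (SE) that did not pass (limma adjusted p = 0.0613). ACSM5 was called with the replicate block and without Shandong black animal 2 (log2 fold change 1.78). THUMPD1, which follows between ACSM1 and ACSM3 and is named as their neighbour, stood at 2.32 to 3.76 FPKM in Shandong black cattle and at 2.27 to 3.66 FPKM in Luxi cattle, and the breeds overlapped.

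**Figure D3:**
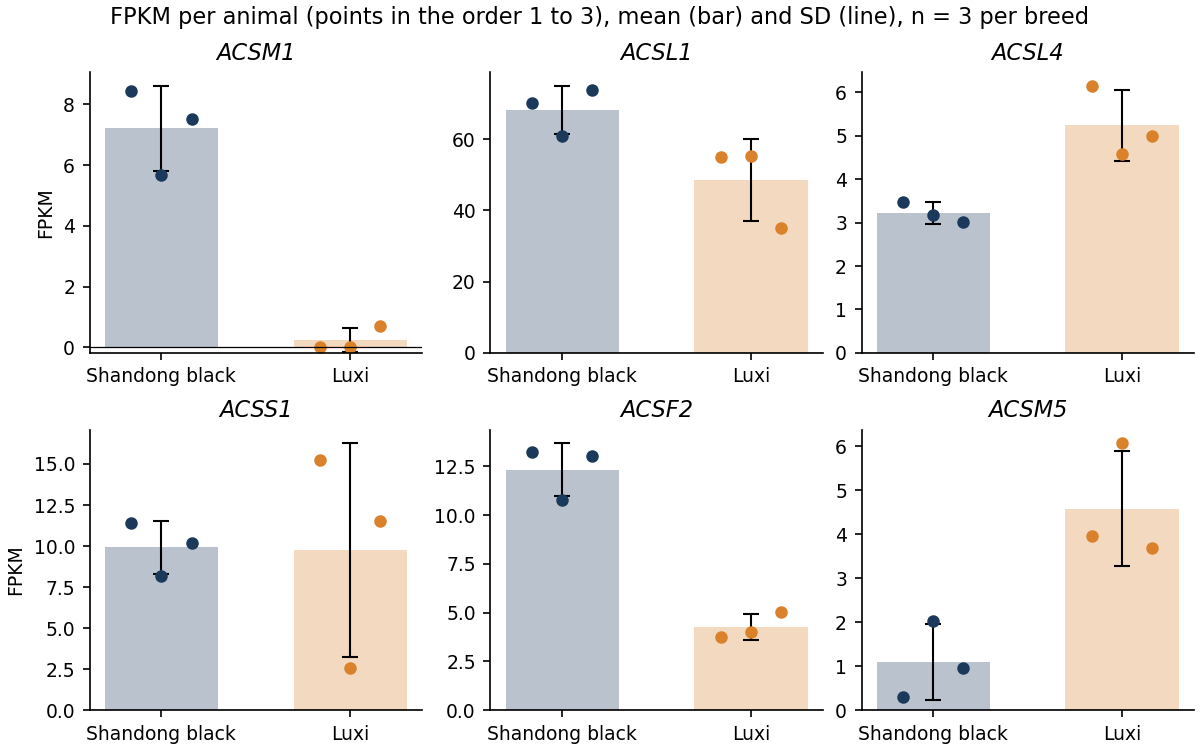
FPKM of ACSM1, ACSL1, ACSL4, ACSS1, ACSF2 and ACSM5 in each animal (points), with the mean as a bar and the SD as a line, 3 animals per breed. The breeds are apart for every gene shown but ACSS1, where Luxi animal 2 at 2.57 FPKM lies below the rest.

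ACSL1 encodes the main long-chain synthetase of muscle, heart and fat. The gene is on chromosome 27 at 15178952 to 15243834, minus strand. Its level was 70.1, 60.8 and 73.9 FPKM in Shandong black cattle, with a mean of 68.3 ± 6.73 FPKM (SD, n = 3). In Luxi cattle it was 54.9, 55.4 and 35.1 FPKM, with a mean of 48.5 ± 11.6 FPKM (SD, n = 3). Every Luxi animal was lower than every Shandong black animal, by 5.44 FPKM at the closest. The log2 fold change was −0.51 ± 0.27 (SE), which was not called. Fat-cell markers were lower in the same animals, as given above, and their part in the ACSL1 values was not tested.

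ACSL1 transcripts began at starts that are far apart. Transcripts from the outermost start carried 23.8, 76.0 and 38.8% of the ACSL1 FPKM in Shandong black animals 1 to 3 and 86.9, 24.3 and 72.1% in Luxi animals 1 to 3. The rest began 15557, 18791 or 20623 bases further downstream. The animals of one breed thus differed from each other over nearly the same span as all 6, and the breeds overlapped. StringTie divides the reads of shared exons among transcripts by estimation, and the share of this division in the spread was not tested.

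**Figure D4:**
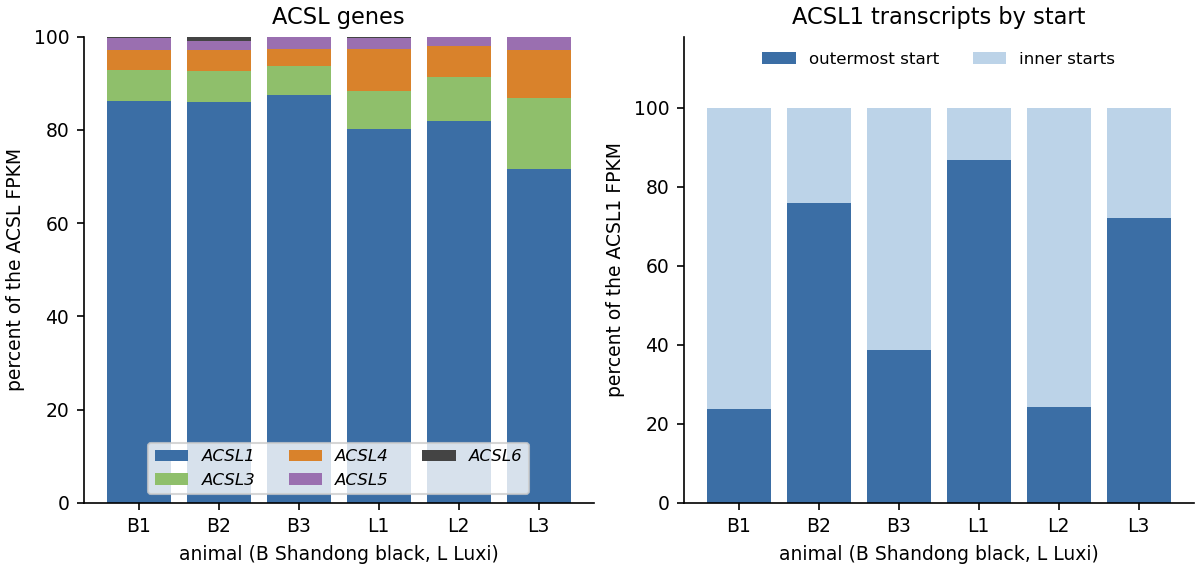
Left, percent of the summed ACSL FPKM on each ACSL gene in each animal. Right, percent of the ACSL1 FPKM on transcripts from the outermost start and from inner starts, with B for Shandong black and L for Luxi cattle. ACSL1 makes up 86.0 to 87.4% of the sum in Shandong black cattle and 71.7 to 82.0% in Luxi cattle, while the start shares of ACSL1 overlap between the breeds.

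ACSL4 encodes an enzyme that prefers arachidonic acid and other long polyunsaturated chains. It lies on the X chromosome at 58032524 to 58110130, minus strand. Its level was 3.48, 3.18 and 3.004 FPKM in Shandong black cattle, a mean of 3.22 ± 0.243 FPKM (SD, n = 3). In Luxi cattle it was 6.16, 4.57 and 4.99 FPKM, a mean of 5.24 ± 0.820 FPKM (SD, n = 3). All 3 Luxi animals were above all 3 Shandong black animals. The log2 fold change of 0.56 ± 0.17 (SE) was the highest among the 7 tested members and was not called. EIF2S3, another gene of the X chromosome and one chosen with its values known, moved in the other direction, from 24.2 to 39.3 FPKM in Shandong black cattle to 4.41 to 7.86 FPKM in Luxi cattle.

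Markers of endothelium and of fibroblasts summed to more in every Luxi animal, as ACSL4 did. The 4 listed endothelial markers summed to 17.0 to 18.1 FPKM in Shandong black cattle and to 22.5 to 63.4 FPKM in Luxi cattle, with 2 of 4 higher without overlap and 0 called by limma (2 at an unadjusted p under 0.05). The 5 fibroblast markers summed to 106 to 157 and 353 to 467 FPKM, with 3 higher without overlap and COL3A1, a fibrillar collagen, called, though not without Shandong black animal 1 or 3. Markers of macrophages overlapped in sum, at 7.58 to 11.1 and 4.91 to 11.07 FPKM. Of the 4 tested, CSF1R was lower in every Luxi animal, with a log2 fold change of −0.66, and the rest overlapped. Among them 0 were called by limma (1 at an unadjusted p under 0.05). Of the Schwann cell markers 2 were tested and went opposite ways, S100B from 46.8 to 118.4 FPKM in Shandong black cattle to 5.76 to 26.6 FPKM in Luxi cattle and MBP, a myelin protein, from 0.252 to 0.415 FPKM to 0.821 to 1.86 FPKM. Their part in the ACSL4 values was not tested.

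ACSL3 encodes a long-chain synthetase of the endoplasmic reticulum and of growing lipid droplets. Its locus is on chromosome 2 at 111037664 to 111113609, plus strand. Its level was 5.39, 4.71 and 5.36 FPKM in Shandong black cattle and 5.64, 6.27 and 7.48 FPKM in Luxi cattle. The means were 5.15 ± 0.388 and 6.47 ± 0.936 FPKM (SD, n = 3 each). The breeds did not overlap, but only 0.247 FPKM parted the nearest animals. This rested on an assembled transcript in Luxi animal 1. There the gene was at 4.84 FPKM on reference transcripts only and at 5.33 FPKM when weighted by bases. Both values lie below Shandong black animals 1 and 3, so that the breeds then overlapped. The log2 fold change of 0.27 ± 0.17 (SE) fell to 0.15 with size factors and 0.11 with quantile normalization. Nearly all of the gene was carried by 1 reference transcript, with 85.8 to 100% of its FPKM.

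ACSL5 encodes a long-chain enzyme of mitochondria and endoplasmic reticulum that is best known from intestine and liver. The gene spans chromosome 26 at 32906517 to 32957884, plus strand. Its level was 2.099, 1.41 and 2.25 FPKM in Shandong black cattle and 1.55, 1.31 and 1.40 FPKM in Luxi cattle. The breeds overlapped, and the log2 fold change was −0.26 ± 0.18 (SE). In Luxi animal 2 no reference transcript of ACSL5 was listed and the value came from assembled fragments, which amount to 0.741 FPKM when weighted by their bases.

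ACSL6 encodes the long-chain form of brain and red blood cells. Its locus is chromosome 7 at 22478230 to 22544343, plus strand. It was at 0.157 and 0.572 FPKM in Shandong black animals 1 and 2, at 0.214 FPKM in Luxi animal 1, and listed at 0 in the other 3 animals. The values of Shandong black animal 2 and Luxi animal 1 came from assembled fragments, which amount to 0.181 and 0.0356 FPKM when weighted by their bases. Single-exon pieces on the same strand were left out of the gene in every animal. They summed to 0.935 to 2.30 FPKM in Shandong black cattle and 0.456 to 1.92 FPKM in Luxi cattle, more than the gene value in each animal. What they stem from was not tested. ACSL6 was below the filter and was not tested between breeds. Markers of red blood cells were low as well, with a summed level of 0.583 to 1.65 FPKM, and none of the 4 that were listed passed the filter.

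ACSL3 and ACSL4 took up a larger part of the long-chain sum in Luxi cattle, and ACSL1 a smaller one. The sum of the 5 ACSL genes was 70.7 to 84.5 FPKM in Shandong black cattle and 49.0 to 68.5 FPKM in Luxi cattle. ACSL1 made up 86.0 to 87.4% of it in Shandong black cattle and 71.7 to 82.0% in Luxi cattle. ACSL4 made up 3.56 to 4.50% and 6.77 to 10.2%, and ACSL3 6.35 to 6.66% and 8.23 to 15.3%. None of these 3 shares overlapped between the breeds. The ratio of ACSL1 to ACSL4 was 20.1, 19.1 and 24.6 in Shandong black animals 1 to 3 and 8.92, 12.1 and 7.04 in Luxi animals 1 to 3. These are ratios within a library, which scaling by a single factor per library does not move. They follow from the gene values above and are no separate evidence.

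ACSS1 encodes the acetyl-CoA synthetase of the mitochondrial matrix, which activates acetate for oxidation and, in ruminants, works on the acetate that comes from the rumen. It lies on chromosome 13 at 42621435 to 42666448, minus strand. Its level was 11.4, 8.20 and 10.2 FPKM in Shandong black cattle and 15.2, 2.57 and 11.5 FPKM in Luxi cattle. The means were 9.93 ± 1.61 and 9.77 ± 6.51 FPKM (SD, n = 3 each), and Luxi animals held both the highest and the lowest value. The log2 fold change of −0.27 ± 0.53 (SE) turned to 0.39 when Luxi animal 2 was left out, so its direction rests on that animal. Luxi animal 2 was also the lowest of the 6 in the slow-fibre markers MYL2 (1513 FPKM), TNNC1 (932 FPKM), TNNI1 and TNNT1. It was not the lowest in MYL3 or MYH7. In MYH7, Luxi animal 2 at 479 FPKM was the highest of the Luxi cattle and above Shandong black animals 1 and 3. The part of slow fibres in its ACSS1 level was not tested. A single transcript carried 87.6 to 96.2% of ACSS1 in every animal.

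ACSS2 encodes the acetyl-CoA synthetase of cytosol and nucleus, which supplies acetyl-CoA for lipid synthesis and histone acetylation. It lies on chromosome 13 too, at 64186750 to 64233570, plus strand. Its level was 7.31, 8.24 and 9.40 FPKM in Shandong black cattle and 4.97, 6.04 and 8.08 FPKM in Luxi cattle. The means were 8.32 ± 1.04 and 6.36 ± 1.58 FPKM (SD, n = 3 each), the breeds overlapped, and the log2 fold change was −0.36 ± 0.21 (SE). The ratio of ACSS2 to ACSS1 was 0.643 to 1.00 in Shandong black cattle and 0.326 to 2.35 in Luxi cattle, so the Luxi animals covered the whole range of the other breed.

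Among 18 other acyl-CoA synthetases, 10 were listed and 6 were tested, of which 0 were called higher and 1 lower by limma. The 6 had a median log2 fold change of −0.08. The called gene was ACSF2, which encodes a mitochondrial synthetase for medium chains. Its level was 13.2, 10.8 and 13.0 FPKM in Shandong black cattle and 3.76, 4.03 and 5.02 FPKM in Luxi cattle. The breeds were apart, with a log2 fold change of −1.34 ± 0.18 (SE, limma adjusted p = 0.021). The call was lost in the fits without Shandong black animal 1 (−1.29), without Shandong black animal 3 (−1.30) and without Luxi animal 2 (−1.31). SLC27A1, a fatty acid transport protein of muscle with synthetase activity, stood at 4.86 to 7.93 FPKM in Shandong black cattle and 6.76 to 12.9 FPKM in Luxi cattle without a call. Its log2 fold change of 0.48 was −0.53 on reference transcripts only.

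The products of the synthetases are held by binding proteins and split by thioesterases. Of 17 such genes, 10 were tested and 0 were called by limma (2 at an unadjusted p under 0.05), with 3 without overlap and higher in Luxi cattle. DBI, the acyl-CoA binding protein, was the most abundant, with 21.1 to 25.0 FPKM in Shandong black cattle and 14.1 to 33.2 FPKM in Luxi cattle. ACOT13, a thioesterase of mitochondria, followed with 5.86 to 8.25 and 5.07 to 11.4 FPKM. Both overlapped between the breeds.

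Genes that use acyl-CoA for oxidation numbered 13 tested, of which limma called 0 (3 at an unadjusted p under 0.05), with a median log2 fold change of −0.17. HADHA, ACADVL and CPT1B were lower in every Luxi animal. HADHA, a subunit of the mitochondrial trifunctional protein, stood at 57.2 to 86.9 FPKM in Shandong black cattle and 32.2 to 50.1 FPKM in Luxi cattle. ACADVL, the very long chain acyl-CoA dehydrogenase, stood at 55.8 to 66.2 and 33.1 to 44.5 FPKM. CPT1B, which passes the product of ACSL1 into mitochondria as carnitine ester, is added here with its values known and stood at 19.8 to 20.5 and 7.74 to 13.8 FPKM, with a log2 fold change of −0.87 ± 0.24 (SE, limma adjusted p = 0.0966) that was called on TPM and after quantile normalization.

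Genes that use acyl-CoA for glycerolipids numbered 11 tested, of which limma called 0 (3 at an unadjusted p under 0.05), with a median of 0.11. The most abundant were AGPAT2, at 19.1 to 32.5 FPKM in Shandong black cattle and 25.4 to 50.3 FPKM in Luxi cattle, and AGPAT5, at 12.0 to 21.9 and 19.99 to 24.2 FPKM. Both encode acyltransferases that add a fatty acid to lysophosphatidic acid. GPAT3, which encodes a glycerol-3-phosphate acyltransferase of fat and is named with its values known, was at 24.3, 5.25 and 18.1 FPKM in Shandong black cattle and 1.82, 2.05 and 2.71 FPKM in the Luxi animals. A log2 fold change of −2.19 ± 0.49 (SE, limma adjusted p = 0.0615) was not called, but was so after quantile normalization and without Shandong black animal 2 (−2.80).

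Of 13 users and other sources of acetyl-CoA, all were tested and 1 was called. PDHA1, a subunit of the pyruvate dehydrogenase that makes acetyl-CoA from pyruvate, stood at 26.2, 31.7 and 27.04 FPKM in Shandong black cattle and 64.8, 91.6 and 71.7 FPKM in Luxi cattle. The log2 fold change was 1.38 ± 0.24 (SE, limma adjusted p = 0.0344), and the gene lies on the X chromosome like ACSL4. The call was lost in 5 of the 6 fits that left out 1 animal, in all but that without Luxi animal 1, with values of 1.24 to 1.49 over the 6. It was also lost with no filter and with the replicate block. CS, citrate synthase, was the most abundant gene of this list at 81.0 to 112 FPKM, and was not called. Of 7 genes for the synthesis of coenzyme A itself, 6 were tested and limma called 0 (2 at an unadjusted p under 0.05). Of these 6, 3 were higher and 1 was lower in Luxi cattle without overlap. PANK4 and PANK1, of the pantothenate kinase family, were the most abundant. PANK4 was higher in every Luxi animal, at 4.95 to 6.31 FPKM in Shandong black cattle and 8.62 to 9.12 FPKM in Luxi cattle. PANK1 overlapped, at 3.65 to 4.08 and 2.21 to 7.84 FPKM.

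For 3 members, the tested genes with the most similar profile were found by the root mean square difference of the centred log2(FPKM + 1) values over the 6 animals. For ACSM1 these were TMEM159 (difference 0.25), MYOM3 (0.27) and TRARG1 (0.28). Each of them was called lower in Luxi cattle, but not without Shandong black animal 1 or 3. The call of TMEM159 was also lost without Luxi animal 2 and with no filter, and that of TRARG1 with a pseudocount of 0.1. TMEM159 encodes a protein of lipid droplets and lies on the same chromosome, 678 kilobases from ACSM1. Its level was 86.1, 51.7 and 74.2 FPKM in Shandong black cattle and 5.19, 8.02 and 17.7 FPKM in Luxi cattle. In both genes the second animal was the lowest of the Shandong black cattle and the third the highest of the Luxi cattle. MYOM3, a protein of the sarcomere M band, and TRARG1, a regulator of glucose transporter traffic in fat and muscle, followed the same order in Shandong black cattle.

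The genes nearest to ACSL4 were B4GALT5 (0.04), HPGD (0.05) and CTTNBP2NL (0.05), of which HPGD encodes an enzyme that breaks down prostaglandins and B4GALT5 a galactosyltransferase. HPGD stood at 0.670 to 0.942 FPKM in Shandong black cattle and 1.28 to 2.07 FPKM in Luxi cattle. For ACSL1 they were ABCA6 (0.07), LOC112441456 (0.08) and MKRN1 (0.10). None of these 6 was called. With 6 animals in 2 groups, many genes share such a profile, and the difference is a description without a test.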

How the data were processed

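RNA-Seq libraries of 3 Shandong black and 3 Luxi cattle were grouped by the breed in the labels. Reads were trimmed with Fastp and aligned to ARS-UCD1.2 with HISAT. The authors deposited coverage, FPKM and TPM per transcript as given by StringTie (version 1.3.3b per the file headers), run per library with the NCBI annotation and a stranded setting. The labels name an Illumina TruSeq RNA kit, which may not mark strand. In unstranded libraries the strand given to a piece, single-exon pieces above all, and so the same-strand rule below, would be uncertain. No read counts were used, so no counting error is given, and precision is limited by 3 animals per breed, of which p-values measure the spread.

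Gene FPKM was summed over reference transcripts and those unnamed assembled ones that lay on the same strand and for 50% or more on the gene's exons. Assembled transcripts outside this rule held 21.6 to 29.8% of the FPKM. A transcript that was not listed was counted as 0. Genes with a mean of at least 1 FPKM in at least 1 breed were fitted with limma 3.58.1 (R 4.3.3, eBayes with trend) on log2(FPKM + 1), a scale that understates changes of low genes. Calls required a Benjamini-Hochberg adjusted p below 0.05 and a change of 1 or more on the log2 scale. The script was tested on simulated data. Named genes were the members, called genes and the 2 most abundant of each related list, markers, and the 3 nearest profiles of the most raised, most lowered and most abundant member. Outside this rule, ACSM5, CPT1B, GPAT3, XIST and EIF2S3 were added with their values known, and THUMPD1 as a neighbour. Members and lists were chosen with earlier results of these data known. Alternatives were other pseudocounts, filters, scalings, transcript rules, a replicate block and leaving out each animal. Base weighting, which divides transcript bases by gene length, was added after seeing the data. Cuffdiff was not run.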

Additional observations from a re-analysis of the deposited data

How the results depend on the processing

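Of the 7 tested members, ACSM1 was called in the main fit and in all alternatives that tested it except the fits without Shandong black animal 1 and without Shandong black animal 3. It was not tested with a mean FPKM of at least 5, where 0 members were called. Over the fits that left out 1 animal, 0 to 1 members were called. The log2 fold change of ACSM1 ranged from −5.18 with a pseudocount of 0.1 to −2.64. The other 6 were not called in any alternative, and of these only ACSS1 reversed, to 0.39 without Luxi animal 2, with a range of −0.70 to 0.39 over the fits that left out 1 animal. Among the other synthetases, SLC27A1 reversed to −0.53 on reference transcripts only. ACSM5, not called in the main fit, was called without Shandong black animal 2 (1.78). Fat-cell markers called numbered 1 to 6 over the alternatives.

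The count over all genes was 63 with no filter, 134 with a mean FPKM of at least 5, 163 on reference transcripts only and 3 to 593 over the fits that left out 1 animal. With the replicate block it was 135. The same-numbered animals are different animals, and the design gives no pairing. The correlation of their deviations from the breed means was 0.084, 0.0869 and 0.0745, and every animal correlated best with its own number. These correlations are small and were not tested. The block also moved ACSM5 into the called genes (adjusted p = 0.0475) and PDHA1 (0.0603) and TNNI1 (0.0698) out of them, and left ACSM1 and ACSF2 called. With 3 animals per breed, an exact test of a single gene cannot go below 0.1. The cause of these changes was not tested.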
